A study of Mus musculus with 4 samples.

Results

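Day 14 was compared with day 5 after muscle injury, across every gene of a series that follows myogenic cells through regeneration. The comparison takes in all probe sets with exactly 1 gene symbol, 20393 of the 22690 on the array, which stand for 12394 genes, and it uses 2 of the 4 arrays of the series. Both groups were myogenic cells of C57BL/6 mice aged 8 to 12 weeks, and no allele or transgene is named. Hind-limb muscle was injured with cardiotoxin, a venom protein that kills fibres but spares satellite cells, and the RNA was taken from cells that had not been cultured. The cells of the day 5 group were collected 5 days after the toxin and those of the day 14 group 14 days after it, with 1 array each. Arrays of days 2 and 3 are given beside them for orientation. The genes that define myogenic cells, Pax7, Myf5, Myod1 and the cadherin gene Cdh15, were measured on both arrays. The labels name SM/C-2.6, an antibody that binds satellite cells, in the purification, and the sources used here do not state how many animals make up a sample.

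Satellite cells are the stem cells of skeletal muscle. They lie between the fibre and its basement membrane in a resting state, marked by the transcription factor Pax7, the calcitonin receptor and high Notch activity. After injury they divide as myoblasts, switch on Myod1 and then Myog, and fuse into new fibres, while a share of them leaves the cell cycle again and refills the niche. Bone morphogenetic proteins (BMPs) act through Smad proteins on the Id genes, whose products bind the partners of Myod1 and hold back differentiation.

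Signals are MAS5 intensities in arbitrary units, brought to a common 2% trimmed mean. The pooled median of the scaled values, 43.0, served as a floor, and genes that reached it on neither array count as not measured. With 1 array a day no difference has a replicate check and no test exists, so a gene is called by size alone, at a ratio of 2-fold or more, and where 1 array is at the floor the ratio is a lower bound, written as at least N-fold. Such a gene was measured only because its other array is high, so its direction is fixed by the choice of genes, and this holds for 728 of the measured genes. Genes with several probe sets are represented by the brightest. Probe sets of 1 gene differed in their log2 ratio with an SD of 0.32 (2323 genes), which covers neither the spread between animals nor that between labellings. The ratio of 3' to 5' signal, a measure of RNA length, was alike on both arrays, at 2.87 on day 5 and 2.84 on day 14 for Gapdh, and 2.19 and 2.14 for Actb. The 18 probe sets of the bacterial hybridisation controls had a median log2 ratio of 0.22, the 16 measured ones of the poly-A controls -0.68, and the 3 of 18S ribosomal RNA -1.26, day 14 over day 5. The sample records of the 2 days are also worded differently, and any difference in handling cannot be told apart from the day.

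Of 7709 measured genes, 371 were at least 2-fold higher on day 14 (4.81%) and 239 at least 2-fold lower (3.1%), so that 7.91% were called in either direction. The median log2 ratio of all measured genes was 0.01, with quartiles of -0.29 and 0.31. A ratio of 4-fold or more was found for 64 higher and 31 lower genes, and one of 8-fold or more for 11 higher genes and none of the lower ones. Other probe sets of the called genes mostly pointed the same way. For the genes called higher, 178 of 184 further measured probe sets were above 0 and 93 were themselves past 2-fold, and for those called lower 121 of 127 were below 0 and 60 past 2-fold. No further probe set was past 2-fold in the opposite direction. The split into higher and lower rested on the scaling: 60.8% of the calls were higher here, 50.5% with the values as deposited and 37.9% with the arrays scaled to the hybridisation controls, which moved the median of all genes to -0.19.

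**Figure D1:**
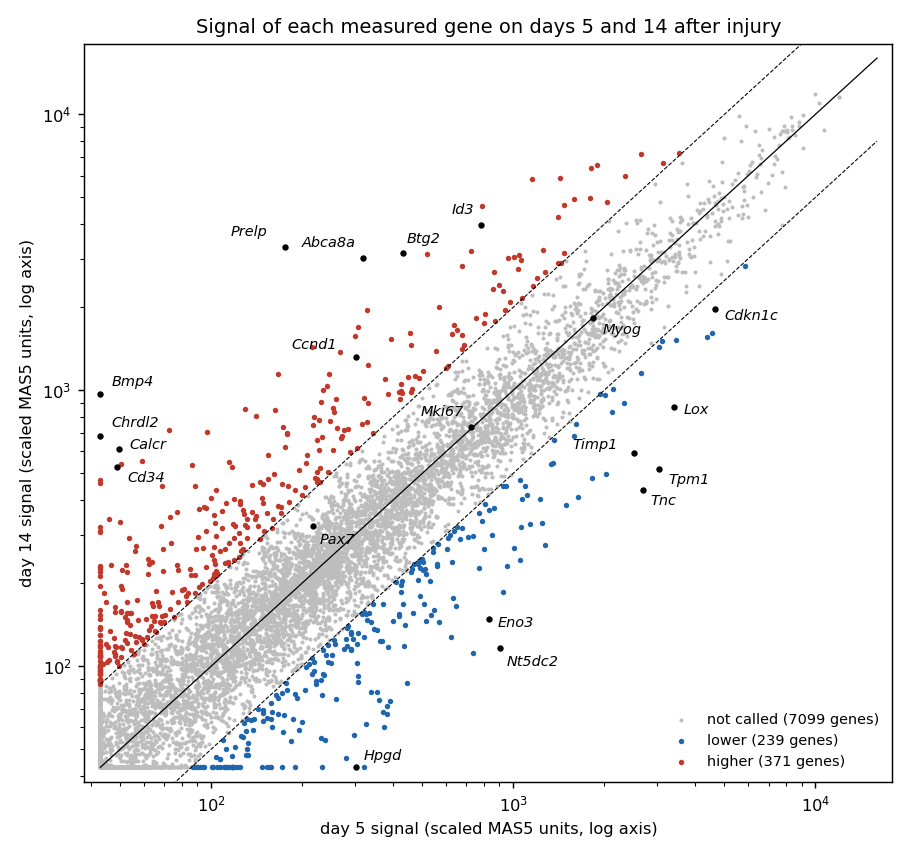
Signal of each of the 7709 measured genes on day 5 (horizontal, log axis) and day 14 (vertical, log axis), with values below 43.0 drawn at that floor; the solid line marks equal signal and the dashed lines a 2-fold difference. Red points are the 371 genes called higher and blue points the 239 called lower, while labelled genes are black; Bmp4 and Prelp lie farthest above the dashed lines, Nt5dc2 and Hpgd far below.

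The largest ratio of all measured genes was that of Bmp4, a BMP ligand. It read 50.4 on day 2, was below the floor on days 3 and 5, and read 972 on day 14, at least 22.6-fold more than on day 5. Prelp, a leucine-rich proteoglycan of basement membranes, went through 78.8 on day 3 and 176 on day 5 to 3313 on day 14. It was below the floor on day 2. Abca8a, a membrane transporter, was below the floor on days 2 and 3, at 319 on day 5 and at 3011 on day 14. These genes were thus at their highest on the last array. Hsd11b1, the enzyme that regenerates active glucocorticoid, read 72.3 on day 5 and 716 on day 14 (9.91-fold). Col15a1, a basement membrane collagen, read 59.0 and 554.1, and Tnxb, a matrix glycoprotein, was at least 7.42-fold higher. Aldh1a1, which makes retinoic acid, and Fabp4, a fatty acid carrier, were 6.88 and 7.31-fold higher. Apoe, the lipid carrier apolipoprotein E, read 791 on day 5 and 4663 on day 14, a gene picked after its values were seen.

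The largest decrease was that of Nt5dc2, a nucleotidase-like protein, which read 517, 612, 903 and 116 on days 2, 3, 5 and 14. Hpgd, which breaks down prostaglandins, went from 302 on day 5 to below the floor, as did Pkp1, a plakophilin of desmosomes, from 319.7. Tnc, tenascin C, a glycoprotein of injured tissue, read 258 and 262 on days 2 and 3, 2691 on day 5 and 435 on day 14. Its day 14 signal was thus 6.19-fold below the peak but still above that of the first arrays. Has2, a hyaluronan synthase, was 6.18-fold lower and Slc38a4, an amino acid transporter, 6.03-fold. Efnb2, a ligand of Eph receptors, was 5.68-fold lower, Eno3, the muscle enolase, 5.61-fold, and Cd276, an immune checkpoint protein, 5.44-fold.

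More markers of resting satellite cells were called higher than lower. Of 32 measured, 12 were called higher and 1 lower (37.5% and 3.12%, against 4.81% and 3.1% of all measured genes), and the median log2 ratio was 0.65. The list was put together with earlier results of these arrays known, so its direction is not independent evidence. Calcr, the calcitonin receptor, was below the floor on days 2 and 3, read 49.5 on day 5 and 615 on day 14. Chrdl2, a secreted BMP antagonist, was below the floor on all 3 earlier arrays and read 683 on day 14. Chodl, the surface lectin chondrolectin, was below the floor on days 2 and 3 and read 517 on day 5 and 3123 on day 14 (6.04-fold). These markers were highest on day 14, and their day 5 signals lay close to the floor except for that of Chodl. Cd34, a sialomucin also carried by endothelial cells, had a different course, with 169 on day 2, a value below the floor on day 3, 48.6 on day 5 and 526 on day 14. Tenm4, a teneurin, read 227 on day 5 and 783 on day 14, and Spry1, an inhibitor of FGF signalling needed for the return to rest, 856 and 2334. Fgfr1, the main FGF receptor, was 2.52-fold higher and the syndecan Sdc4 2.5-fold. Several classic markers were not called by their brightest probe set. Vcam1 read 2618 and 3449.8, with 3 probe sets from 0.40 to 1.17 on the log2 scale, the M-cadherin gene Cdh15 1884 and 1653, and the integrin gene Itga7 1464 and 1070.0. In sorted bulk cells such as these, more cells that carry a marker and more of its RNA in each cell cannot be told apart.

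**Figure D2:**
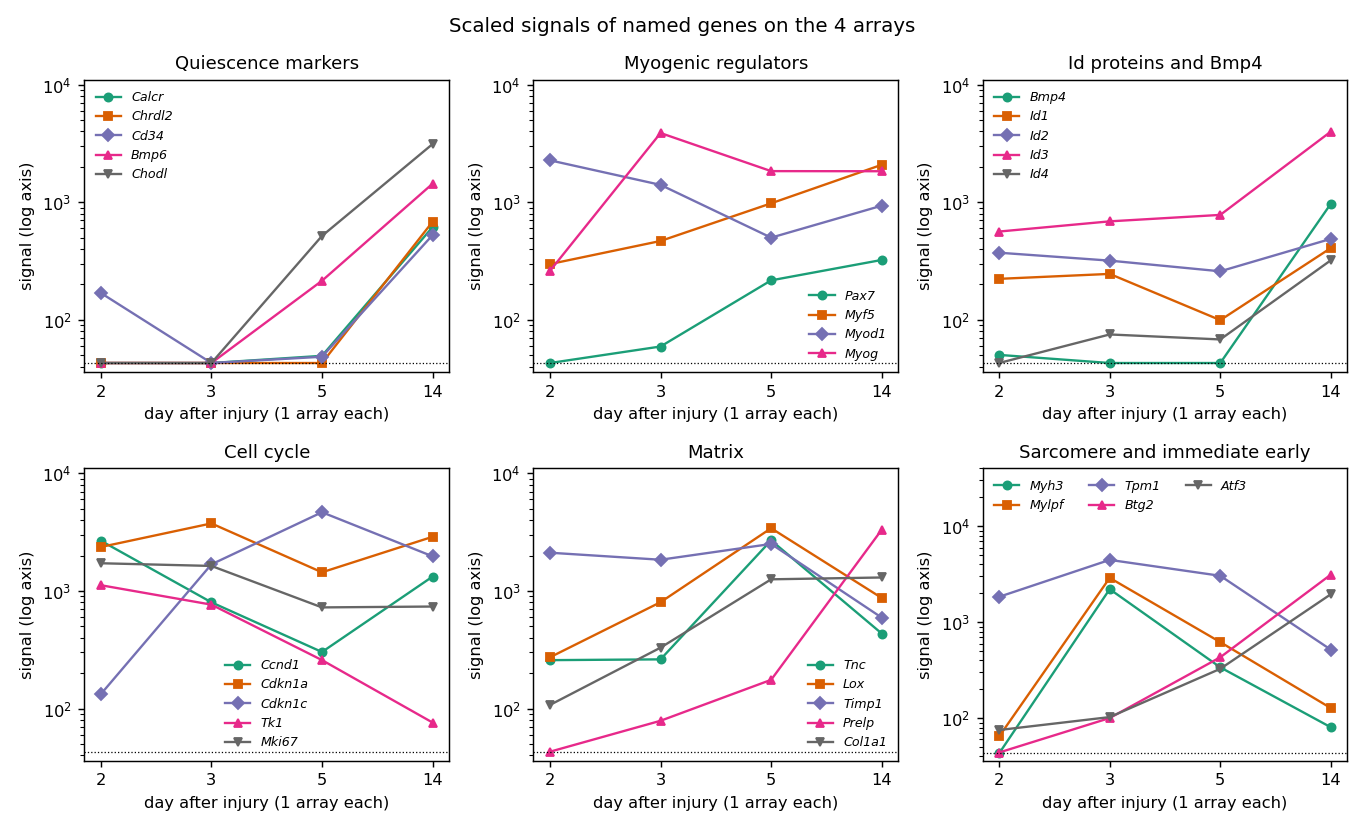
Scaled signal (log axis) of named genes on the arrays of days 2, 3, 5 and 14, in 6 panels by role; each point is 1 array, lines join the arrays of a gene and the dotted line is the floor of 43.0. Quiescence markers, Bmp4 and the Id genes are highest on day 14, whereas Tnc and Lox peak on day 5 and Myh3 and Mylpf on day 3.

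The myogenic regulators differed less. Of 16 measured, 1 was called higher, Myf5 (6.25%, close to the 4.81% of all measured genes), and the median log2 ratio was 0.26. Pax7 was below the floor on day 2, then read 59.4, 217 and 323, and its ratio of day 14 to day 5 was 1.49-fold. Myf5, the factor that marks committed satellite cells, read 298 and 469 on days 2 and 3, 979 on day 5 and 2081 on day 14 (2.13-fold), a call that was lost with the values as deposited (where it came out just under 2-fold) and with control scaling (0.88). Myod1, which drives differentiation, read 500.2 and 935 (1.87-fold, not called). Myog, the factor of terminal differentiation, was level at 1839 and 1835. Mef2c and Six4, cofactors of differentiation, had log2 ratios of -0.90 and -0.86. Pax7 and Myf5 were thus at their highest of the 4 arrays on day 14, beside a Myog signal like that of day 5.

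Genes of the contractile apparatus were more often lower than higher. Of 33 measured, 12 were called lower and 2 higher (36.4% and 6.06%, against 3.1% and 4.81% of all measured genes), and the median log2 ratio was -0.57. Over the 23 above the floor on both arrays, 10 were called lower and 2 higher, the median was -0.94 and 21 lay below 0. Myh3, the embryonic myosin heavy chain that marks new fibres, read 2210.1 on day 3, 339 on day 5 and 80.4 on day 14. Mylpf, a fast myosin light chain, went from 620.3 to 127 (4.87-fold lower), Tnni1, the slow troponin I, from 355 to 80.3, and Tnnt2, the cardiac troponin T of immature muscle, from 1269.7 to 276. Tpm1, a tropomyosin, was 5.89-fold lower and Ttn, the giant protein titin, 3.48-fold. The actin genes Acta1 and Actc1 were not called, with log2 ratios of -0.96 and -0.57. The 2 genes called higher were Myh1, an adult fast myosin (62.3 to 235), and Cryab, a small heat shock protein (941 to 1958), which lost its call with the values as deposited (0.97), with control scaling (0.85) and with the mean over probe sets (0.91). Dmd, which encodes dystrophin and was picked after its values were seen, went the other way from most of the list, from 89.0 to 265.5. Of 6 measured genes of the acetylcholine receptor and the synapse, 2 were lower and none higher (33.3% lower). Chrng, the fetal gamma subunit that gives way to another as fibres mature, read 383 on day 5 and 71.8 on day 14 (5.33-fold), and Chrna1, the alpha subunit, 3117 and 1515. Chrnb1, the beta subunit, read 559.9 and 1050.3 and was not called.

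Within the BMP and TGF-beta pathway, calls were found among the ligands, the antagonists and the targets, and none among the receptors. Of 8 measured ligands, 3 were called higher (37.5%, against 4.81% of all measured genes), Bmp4 among them through day 14 alone. Besides Bmp4 they were Bmp6, which read 215 on day 5 and 1437 on day 14, and Inhbb, a chain of activin B, which read 104 and 435. Bmp2, Bmp5 and Bmp7 were below the floor on both arrays, and Bmp1, which is a protease and not a true ligand, was not called by its brightest probe set (730.2 and 773) and had -1.30 on the log2 scale by another. Tgfb1 and Inhba, a chain of activin A, went from 59.4 and 49.1 to below the floor and were not called. Tgfb2 and Tgfb3 had ratios of 1.5 and 1.54-fold and were not called. Of 11 antagonists and carriers, 3 were higher, Chrdl2, Ltbp4 and Bambi, and Ltbp2 was lower. With an offset in place of the floor Bambi (0.92) and Ltbp2 (-0.90) lost their calls. Ltbp4 and Ltbp2 belong to the family named latent TGF-beta binding proteins. They stood apart, with 252.5 and 865 for the former and 290.4 and 133 for the latter. None of the 13 receptors and Smads was called. Their log2 ratios ran from -0.65 for Tgfbr2, the type II TGF-beta receptor, to 0.98 for Acvrl1, a type I receptor of BMP9, and their median log2 ratio of 0.08 turned to -0.12 with control scaling. The BMP receptor Bmpr1a read 705 and 748. Of 12 targets, 5 were called higher and none lower (41.7% higher), and their median was 0.86. Tgfbi (-0.67) and Klf10 (-0.19), which TGF-beta induces, lay below 0. Smad6, an inhibitory Smad that BMP itself induces, read 51.7 and 151 (2.92-fold, but 0.81 on the log2 scale with the floor at 2 times the pooled median), and Smad7, the other inhibitor, 121 and 195 (1.6-fold, not called). Skil, a repressor of Smad activity, was 2.34-fold higher, although its second probe set had a log2 ratio of 0.08 and the mean of both 0.65.

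The Id genes differed by member. Id3 read 781 on day 5 and 3987 on day 14, Id1 99.5 and 408, and Id4 68.2 and 321, which made them 5.11, 4.1 and 4.72-fold higher. The 3 probe sets of Id4 ranged from 0.71 to 2.24 on the log2 scale, so its ratio depended on the probe set. Id2 read 259 and 488 (1.89-fold) and was not called, and its 3 probe sets ranged from 0.14 to 0.92 on the log2 scale. Id1 had its lowest signal of the series on day 5, after 223 and 246 on days 2 and 3, whereas Id3 had stayed between 564 and 781 before day 14. Among the hairy-related repressors, Hey1 read 176 and 623 (3.54-fold), Heyl 781 and 1169 (1.5-fold, not called), and Hey2 was below the floor on both arrays. Of 17 measured Notch pathway genes, Hey1 and Numb, an inhibitor of Notch, were called higher and none lower. That is 11.8% higher, against 4.81% of all measured genes, and the list's median was 0.50. The receptors were not called: Notch1 read 894 and 889.8, Notch2 629.5 and 913, and Notch3 824 and 1165, while Notch4 was below the floor. Hes1, a direct Notch target, read 369 and 649.8 (1.76-fold), and Dll1, a ligand, 246 and 405. Hey1 had the largest ratio of the Notch list, and none of its receptors reached 1.5-fold.

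**Figure D3:**
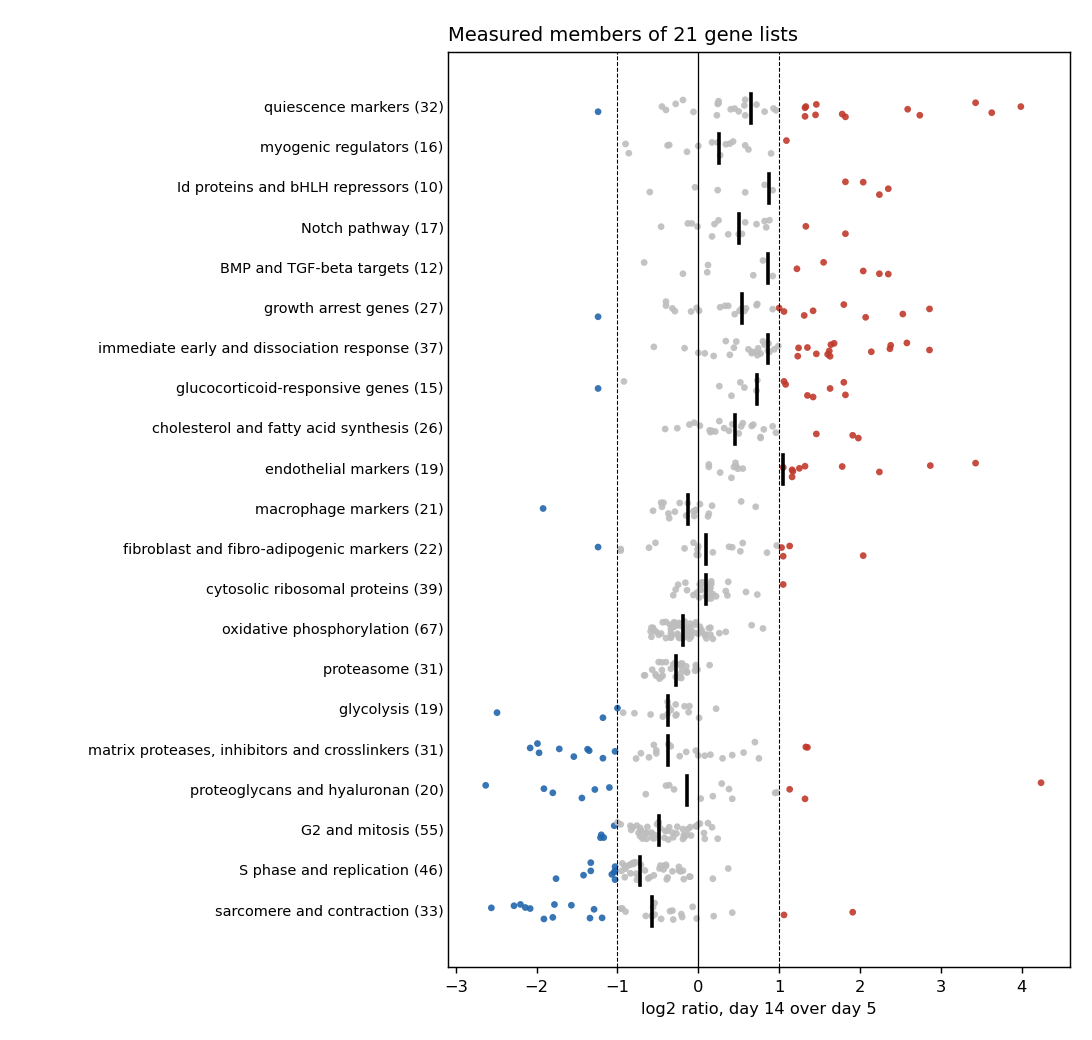
Log2 ratio of day 14 over day 5 (horizontal) for every measured member of 21 gene lists (rows, number measured in brackets); red points were called higher, blue lower and grey not called, black bars mark the list medians and dashed lines a 2-fold difference. S phase, mitosis and sarcomere lists lie mostly left of 0 and the quiescence and immediate early lists mostly right; members with 1 array at the floor could lie on 1 side only.

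Genes of DNA replication were lower almost throughout, mostly by less than 2-fold. Of 46 measured S phase genes, 9 were called lower and none higher (19.6% lower, against 3.1% of all measured genes). The median log2 ratio was -0.72. Of the 44 above the floor on both arrays, 42 were below 0, and their median was -0.75. Tk1, thymidine kinase, read 1119, 765, 258 and 76.1 on days 2, 3, 5 and 14 (3.4-fold lower). Rrm2, a subunit of ribonucleotide reductase, read 3293 and 2737 on days 2 and 3, 1111 on day 5 and 416 on day 14, and its 3 probe sets had log2 ratios between -1.63 and -1.42. Gmnn, geminin, which limits replication to a single round, was 2.52-fold lower and E2f8, a repressor of the cycle, 2.51-fold, which came to -0.94 on the log2 scale with an offset in place of the floor. The signals of Tk1 and Rrm2 were thus lower on each array than on the one before. The helicase subunits Mcm2 and Mcm6 were not called, with log2 ratios of -0.95 and -0.91, and Pcna, the replication clamp, was level at 2700.3 and 2524.

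Few genes of G2 and mitosis were called. Of 55 measured, 4 were called lower and none higher (7.27% lower, against 3.1% of all measured genes), and the median log2 ratio was -0.49. Of the 52 above the floor on both arrays, 46 were below 0. Hmmr, a spindle protein, read 216 and 93.4, Plk4, the kinase of centriole copying, 427 and 186, Kif22, a chromosome motor, 834 and 369, and Ccna2, cyclin A2, 616 and 299. For Plk4 and Kif22 other probe sets gave log2 ratios as small as -0.33 and -0.19, and neither was called when probe sets with names ending in _s_at, _x_at or _a_at were left out or with the mean over probe sets (-0.76 and -0.73). Hmmr (-0.89) and Ccna2 (-0.93) lost their calls with an offset in place of the floor, so that each of the 4 calls was lost under some alternative. Top2a, a topoisomerase of dividing cells, had a ratio of -0.83 on the log2 scale. Mki67, the proliferation antigen Ki-67, was level at 725 and 737.0, and Cdk1, the mitotic kinase, read 344 and 277. Mki67 and Cdk1 were thus not called lower, whereas Ccna2 of this list and Tk1 and Rrm2 of the S phase list were. The working name of this step is a return to quiescence, and whether the cells had returned to rest was not tested.

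The promoter of Kif22 is shown because it carries both elements that promoters of mitosis genes often share, the CHR (TTTGAA) and the CCAAT box. The 250 bases before its RefSeq start lie at chr7:127042421-127042670 of build GRCm38.p6, on the minus strand, and capitals mark the 2 CHR and 2 CCAAT matches on either strand, which begin at -215 and -17 and at -233 and -54.
Kif22: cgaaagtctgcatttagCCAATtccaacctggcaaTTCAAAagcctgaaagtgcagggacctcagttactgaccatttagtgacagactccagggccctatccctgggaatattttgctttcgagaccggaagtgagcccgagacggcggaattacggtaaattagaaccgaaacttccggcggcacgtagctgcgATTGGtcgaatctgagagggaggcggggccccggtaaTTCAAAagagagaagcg
Searched in the same windows, the CHR was found in 1 of 3 lower G2 and mitosis genes with a promoter in the table and in 15 of the 42 not called (35.7%), against 12.6% of the 6295 measured genes with a promoter. CCAAT stood in 2 of 3 and in 30 of 42 (71.4%), against 40.8%. These matches are descriptions of letters, not of binding.

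Genes of the G1 phase and of growth arrest were called in both directions. Of 18 measured G1 cyclins and kinases, 2 were called higher and 1 lower (11.1% and 5.56%, against 4.81% and 3.1% of all measured genes). Ccnd1, cyclin D1, which passes growth signals to the cell cycle, read 2673, 801, 303 and 1324 on days 2, 3, 5 and 14. It was thus 4.37-fold higher than at its low point on day 5, with all 3 probe sets above 2-fold. Ccnd2 was 2.44-fold higher, while its 5 probe sets ranged from 0.21 to 1.29 on the log2 scale, Ccnd3 was level (990.3 and 994.5), and Ccne1, cyclin E1 of S phase entry, was 2.05-fold lower. Ccnd2 lost its call with the mean over probe sets (0.93) and Ccne1 with an offset in place of the floor (-0.79). Cdk4, the partner of the D cyclins, read 2240.0 and 1384 and was not called. Of 27 growth arrest genes, 8 were called higher and 1 lower (29.6% and 3.7%, against 4.81% and 3.1% of all measured genes), and their median was 0.54. Btg2, an antiproliferative protein, read 431 and 3134 (7.27-fold), and Gas1, a membrane protein of resting cells, 674 and 2826. Gas6, a ligand of TAM receptors, read 140.3 and 808, and Foxo1, a factor of satellite cell rest, 172 and 459. The kinase inhibitors of the Cip and Kip family went in different directions. Cdkn1a (p21) read 1440.1 and 2886 and stood at the limit with 2.0-fold. It was not called with values as deposited, with quantile normalization, with an offset in place of the floor, or with control scaling. Cdkn1b (p27) read 122 and 201 by its brightest probe set (not called), and its 2 probe sets had log2 ratios of -0.26 and 0.72. Cdkn1c (p57), an imprinted inhibitor of differentiating myoblasts, had climbed from 133 on day 2 to 4667 on day 5 and read 1969.5 on day 14. Of 17 measured p53 targets, 5 were higher and 1 lower (29.4% and 5.88%), the latter being Pmaip1, which promotes cell death (435 and 118).

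The immediate early genes, which a stimulus or the release of cells from tissue switches on within minutes, were called in 1 direction only. Of 37 measured, 14 were called higher and none lower (37.8%, against 4.81% of all measured genes), and the median log2 ratio was 0.86. Of the 34 above the floor on both arrays, 32 were above 0. Atf3, a stress-induced repressor, read 75.3, 103, 327 and 1958 on days 2, 3, 5 and 14. Cebpb, a bZIP factor, read 163 on day 5 and 849.8 on day 14, and Maff, a small Maf protein, 268 and 1381. Nr4a1, an orphan receptor, read 727 and 3209.8, Ier2 1469 and 4701, Junb 963 and 3008, Zfp36, which speeds the decay of mRNA, 1595 and 4917, and Dusp1, a MAP kinase phosphatase, 2341 and 5956. These genes were highest on day 14 of the 4 arrays. Fos and Egr1, which were already bright on day 5 at 5892 and 5576, read 9069 and 9858 and were not called (1.54 and 1.77-fold). The sources used here do not state how long the cells were out of the tissue, and its part in these values was not tested.

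Promoters of the called immediate early genes are shown where they hold a full cAMP response element (CRE, TGACGTCA) or a CArG box, the site of serum response factor, in the 250 bases before the RefSeq start. All are of build GRCm38.p6 and written 5' to 3' in the sense of the gene. Capitals mark the CRE in Btg2 (chr1:134079156-134079405, minus strand, beginning at -166), in Dusp1 (chr17:26508473-26508722, minus strand, -143) and in the second of 3 starts of Maff (chr15:79347270-79347519, plus strand, -29). In Zfp36 (chr7:28379229-28379478, minus strand) they mark a CArG box beginning at -58.
Btg2: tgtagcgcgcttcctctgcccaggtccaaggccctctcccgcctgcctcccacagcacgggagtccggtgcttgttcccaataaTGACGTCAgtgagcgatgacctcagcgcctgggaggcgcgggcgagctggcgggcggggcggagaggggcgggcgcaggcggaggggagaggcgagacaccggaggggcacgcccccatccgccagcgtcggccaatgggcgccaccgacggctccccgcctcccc
Dusp1: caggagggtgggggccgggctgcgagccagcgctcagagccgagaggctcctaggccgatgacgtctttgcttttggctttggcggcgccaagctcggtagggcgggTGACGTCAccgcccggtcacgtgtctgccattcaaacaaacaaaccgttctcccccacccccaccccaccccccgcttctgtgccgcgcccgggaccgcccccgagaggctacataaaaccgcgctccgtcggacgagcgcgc
Maff: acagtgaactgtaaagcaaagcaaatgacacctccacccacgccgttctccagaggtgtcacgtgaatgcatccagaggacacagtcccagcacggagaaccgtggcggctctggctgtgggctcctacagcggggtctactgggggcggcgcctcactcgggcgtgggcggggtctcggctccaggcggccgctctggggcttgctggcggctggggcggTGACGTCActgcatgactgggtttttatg
Zfp36: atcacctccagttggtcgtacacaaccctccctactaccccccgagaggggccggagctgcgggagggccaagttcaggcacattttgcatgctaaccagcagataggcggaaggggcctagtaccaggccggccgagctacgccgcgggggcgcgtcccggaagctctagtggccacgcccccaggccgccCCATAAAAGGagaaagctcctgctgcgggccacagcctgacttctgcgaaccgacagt
Over both strands, 3 of the 12 called immediate early genes with a promoter in the table held a CRE (25%), against none of 17 not called and 3.03% of the 6295 measured genes. The CArG box was in 1 of 12 and 1 of 17, against 1.48%, and the AP-1 site (TGANTCA), a pattern that the letters of the CRE do not contain, in none of 12 and none of 17, against 5.53%. No match says only that these letters are not in this window.

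Genes that respond to glucocorticoid overlapped with this group but were not the same. Of 15 measured, 7 were called higher and 1 lower (46.7% and 6.67%, against 4.81% and 3.1% of all measured genes), and their median was 0.73. Klf9, a Krüppel-like factor that the receptor induces, read 1887 on day 5 and 6562 on day 14 (3.48-fold), although its 5 probe sets ranged from 0.37 to 2.01 on the log2 scale. The metallothioneins Mt1 and Mt2 read 1815 and 6417, and 3142.5 and 6639, where Mt2 lost its call with the values as deposited (0.99) and with control scaling (0.87). Nr3c1, the glucocorticoid receptor itself and no member of the list, read 195 and 514 with both probe sets above 2-fold. Of Fkbp5 and Tsc22d3, which the receptor induces in many tissues, the first read 217 and 115, and the second 112 and 149 by its brightest probe set, with 3 probe sets from 0.41 to 1.33 on the log2 scale. Per1, a target shared with the clock, was 1.65-fold higher and not called.

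Of 11 measured clock genes, 3 were called higher and none lower (27.3% higher), namely Nfil3, Rora and Dbp, at 3.93, 3.46 and 2.27-fold. Dbp lost its call with the mean over probe sets (0.86), with control scaling (0.97), with an offset (0.95) and without probe sets named _s_at, _x_at or _a_at (0.53). Arntl (Bmal1), the core activator, read 157 and 270.5, and Nr1d1, a repressor of it, was level at 194 and 198. The sources used here do not state the hour of collection, and its part in these values was not tested. Of 23 heat shock and chaperone genes, 4 were higher (17.4%), among them Dnajb1 (1800.3 and 4993), Hspb1 (2648 and 7175) and Bag3 (678 and 1580.5). Of 22 genes of the unfolded protein response 1 was called higher, Ppp1r15a (4.55%, close to the 4.81% of all measured genes). Of 27 antioxidant genes and metallothioneins, 8 were higher and none lower (29.6% higher) while the median was 0.05. Those called included Cp, ceruloplasmin, which carries copper, with 50.2 and 541, Sod3, the extracellular superoxide dismutase, with 50.7 and 191, and Gstm1, a glutathione transferase, with 247 and 774. Catalase (Cat) was level at 598 and 551.

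Structural matrix genes were called in both directions, with most members level. Of 19 measured collagen genes 1 was called higher and 2 lower, and the median log2 ratio was -0.01. The fibril collagens Col1a1 (1256 and 1301) and Col3a1 (8043 and 8751) were level. The 2 close relatives in the basement membrane parted, as Col15a1 was 9.39-fold higher and Col18a1 2.58-fold lower (2324 and 902). Of 18 basement membrane genes, 3 were higher and 1 lower (16.7% and 5.56%), the laminin chains Lamb2 (108 and 364) and Lamc1 (254 and 606) being among the higher. The second probe set of Lamc1 had a log2 ratio of 0.10, and the mean of both was 0.68. Of 27 matrix glycoproteins, 4 were higher and 4 lower (14.8% each way). Tnxb, Vtn (vitronectin), Dpt (dermatopontin) and Ccn3 were higher, with Dpt at 1430.3 and 5877, whereas Tnc, Fbln2, Ccn4 and Emilin1 were lower. The tenascins thus parted as well, with Tnc lower and Tnxb higher. Postn, periostin, stood just short of the limit with 7737 and 3982.5.

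Proteoglycan genes were called in both directions, and proteases and crosslinkers more often lower than higher. Of 20 proteoglycan and hyaluronan genes, 6 were called lower and 3 higher (30% and 15%, against 3.1% and 4.81% of all measured genes). Of the 20, 10 lay on either side of 0 and the median was -0.14. Besides Has2, Vcan (versican, which binds hyaluronan) read 1138 and 328, and Cd44, the receptor of hyaluronan, 1613 and 754. Of the other hyaluronan synthases, Has1 read 254.5 and 490.7 (log2 ratio 0.95, not called), and Has3 was below the floor on both arrays. The heparan sulfate proteoglycans Sdc1 (1009 and 268), Gpc3 (419 and 155) and Gpc1 (1095 and 451) were lower, whereas Sdc4 was higher. Lum, lumican, read 797 and 1750.2 and lost its call with control scaling. Of 31 proteases, inhibitors and crosslinkers, 9 were called lower and 2 higher (29% lower, against 3.1% of all measured genes), with a median of -0.37. Timp1, an inhibitor of metalloproteases, read 2509 and 593, Lox, the crosslinker of collagen, 3414 and 872, and Mmp14, a protease of the cell surface, 2119.6 and 834. Mmp2, which Mmp14 activates, read 2542 and 4138 (1.63-fold higher, not called). Adam19, a protease of the cell surface, was 3.29-fold lower by its brightest probe set and had -0.28 on the log2 scale by the other.

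Smaller lists of growth factors and other signals held 1 to 4 called genes each, beside 7.91% of all measured genes called. Of 12 IGF genes 3 were called (25%). Irs2, an adaptor of the insulin receptor, was higher and Igfbp3 and Igfbp2, which bind IGF, were lower. Igfbp2 was below the floor on day 14, so it was measured only through day 5 and could only lie below 0. Its call was lost with an offset in place of the floor (-0.91) and with the floor at 2 times the pooled median (-0.40). Igfbp3 read 265 and 179.8 on days 2 and 3, 1230.0 on day 5 and 404 on day 14. The ligands Igf1 and Igf2 were not called, with 639 and 990.2, and 3605 and 4220.0. The 3 probe sets of Igf1 ranged from -0.88 to 0.63 on the log2 scale. Of 14 Wnt genes 3 were called (21.4%). Wnt4, a ligand, was at least 4.94-fold higher, Sfrp4, a secreted inhibitor, 2.85-fold higher, and the receptor Fzd2 2.35-fold lower, where 1 of its 3 probe sets gave only -0.19 on the log2 scale and the mean was -0.85. Of 10 retinoic acid genes, 3 were called higher (30%), but 4 of the 10 were at the floor on day 5 alone and could only lie above 0. The 3 were Rarres2, the gene of chemerin, a protein that attracts immune cells, at least 11-fold, Aldh1a1, and Dhrs3, a retinal reductase, at least 4.54-fold. The receptor Rarb was at least 1.7-fold higher. Of 7 prostaglandin genes 3 were called (42.9%). Ptger4, a receptor of prostaglandin E2, was 2.4-fold higher, and Hpgd and Ptgs2, an inducible cyclooxygenase, were lower. Hpgd was below the floor on day 14 and could only lie below 0. Of the 6 above the floor on both arrays, 1 was higher and 1 lower. Ptgs2 was 5.25-fold lower by its brightest probe set and had -0.29 by the other. Among 16 imprinted genes 4 were called (25%). Meg3, a maternally expressed noncoding RNA, was 3.55-fold higher, with probe sets from 0.14 to 2.61 on the log2 scale (0.14 without those named _s_at, _x_at or _a_at), whereas Slc38a4, Mest and Cdkn1c were lower.

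Genes of energy metabolism mostly differed by less than 2-fold. Of 19 measured glycolysis genes, 3 were called lower and none higher (15.8% lower, against 3.1% of all measured genes), and their median was -0.37. Eno3 read 4364 and 4392 on days 2 and 3, 829 on day 5 and 148 on day 14, while Pfkl, a phosphofructokinase, read 504 and 223 and Ldha, lactate dehydrogenase, 3519 and 2904 (not called). Tpi1 stood at the limit with 2.0-fold and lost its call with quantile normalization (just under 2-fold), scaling to a common median (-0.99), an offset (-0.97) and the mean over probe sets (-0.89). None of 67 oxidative phosphorylation genes was called, and 53 of them were below 0, with a median of -0.19. None of the 31 proteasome genes was called either, and 30 were below 0, with a median of -0.28. With control scaling the medians of both lists were lower still, as that of all genes was -0.19. Of 26 genes of cholesterol and fatty acid synthesis, 3 were higher and none lower (11.5% higher, against 4.81% of all measured genes). Above 0 lay 22 of them, and the median was 0.46. Scd1, a desaturase, read 230.5 and 908, Msmo1, a sterol oxidase, 63.5 and 238, and Idi1, an isomerase of the sterol pathway, 118.5 and 326.5. Msmo1 had read 512 on day 2. The 39 ribosomal protein genes had a median of 0.10 that turned to -0.10 with control scaling, and none of 40 ribosome biogenesis genes was called.

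Some markers of other cell types were above the floor on both arrays, and others were at the floor on 1 array or on both. Of 19 measured endothelial markers, 11 were at the floor on day 5 alone and were thus measured only through day 14, so they could only lie above 0 and nothing is read from the list's counts or median. Of the other 8, above the floor on both arrays, 5 were called higher. Over the 27 on the array the summed signal was 919, 985, 1510 and 4112 on days 2, 3, 5 and 14. At the floor were 19 of the 27 on day 5 and 8 on day 14. Much of the difference between the sums of days 5 and 14 is that of Fabp4 (96.8 and 707), Cd34 (48.6 and 526) and Aqp1. The sums thus do not measure endothelial RNA. Aqp1, a water channel, read 289, 401, 73.3 and 346 on days 2, 3, 5 and 14, so its day 14 signal was not its highest. Cldn5, a tight junction protein, was at least 3.44-fold higher, Esam 2.37-fold, and Plvap and Vwf, a clotting factor of endothelium, at least 2.26 and 2.07-fold. With the floor at 2 times the pooled median Cldn5, Esam, Plvap and Vwf lost their calls, with log2 ratios of 0.78, 0.39, 0.17 and 0.05. Plvap (0.95 and 0.83) and Vwf (0.82 and 0.91) also lost theirs with quantile normalization and with an offset, Esam with the offset (0.74) and Vwf with control scaling (0.94). The defining markers Pecam1 (4.31 and 38.4), Cdh5, Flt1, Tie1, Emcn and Erg were below the floor on both arrays. Kdr, a VEGF receptor, was below the floor on day 5 and read 59.1 on day 14. The list also holds Cd34 and Fabp4, and apart from these 2 the highest called marker on day 14 was Aqp1. The part of endothelial RNA in the values of Cd34, Fabp4 and the other genes called higher was not tested.

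**Figure D4:**
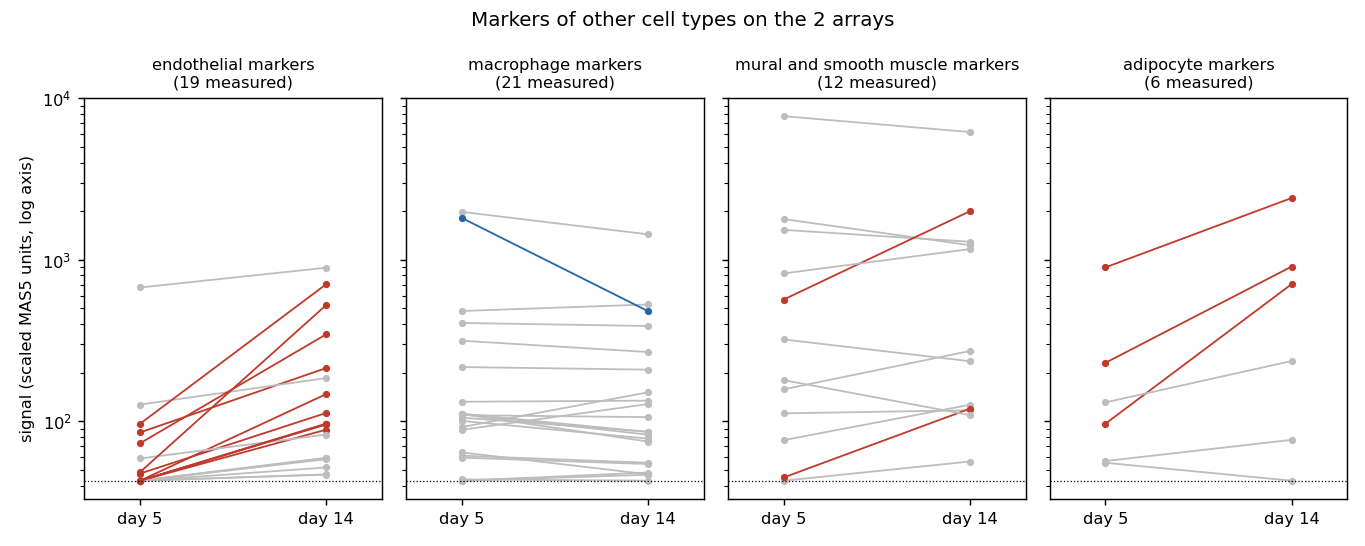
Signal (log axis) of each measured marker of endothelial, macrophage, mural and adipocyte cells on day 5 and day 14; lines join the arrays of a gene, red lines were called higher, blue lower and grey not called, and the dotted line is the floor of 43.0. Of the 19 endothelial markers 11 start at the floor and could only slope upward, while of the macrophage markers Lgals3 alone is past 2-fold.

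Among macrophage markers, none of 21 measured was called higher and 1 was lower (4.76%, against 3.1% of all measured genes). The lower one was Lgals3, galectin 3, which macrophages share with many other cells (1816 and 481). The median was -0.13 and the summed signal of all 29 was 6582 on day 5 and 4607 on day 14. Much of the difference between these sums is that of Lgals3 alone, so they do not measure macrophage RNA. Ptprc, the leukocyte antigen CD45, read 59.7 and 54.5, Csf1r 316 and 269, Adgre1 105.5 and 86.5, and Itgam was below the floor on both arrays. Fibroblast and fibro-adipogenic markers held 4 higher and 1 lower among 22 measured (18.2% and 4.55%, against 4.81% and 3.1% of all measured genes). Their median was 0.09, which turned to -0.12 with control scaling. The summed signal of the 26 on the array was 23960 and 30260. Pdgfra, the defining receptor of these cells, was level at 105 and 104, and Thy1 was 2.36-fold lower. Of 12 mural markers, Rgs5, a pericyte regulator, and Kcnj8, a potassium channel, were higher (16.7%). Rgs5 read 568 and 1997, and Kcnj8 lost its call with the floor at 2 times the pooled median (0.48) and with an offset (0.84). Of 6 measured adipocyte markers, Fabp4, Scd1 and Lpl, a lipase, were higher (50%), while Adipoq and Pparg, which define the type, were below the floor on both arrays. Of 6 measured tenocyte markers, 2 were higher (33.3%), Tnmd (635.5 and 1729) and Chodl, which is on the quiescence list as well. Pmp22, a myelin protein, was the only called member of 5 Schwann cell markers (20%), and of 2 measured lymphocyte markers none was called. Xist, the transcript of the inactive X chromosome, read 1119 and 1417.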

How the data were processed

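Expression was measured on Affymetrix mouse 430A arrays, with 1 array for each of 4 days. The values are signal intensities that the authors deposited on a linear scale. MAS5 produced them, per the submitters' processing notes, and the sources used here do not state its settings or scaling target. Per the labels' protocols, a small sample assay, which amplifies RNA, made the biotin-labelled target. All arrays were brought to 1 shared 2% trimmed mean (factors 0.917 on day 5 and 0.976 on day 14), values below the floor of 43.0 were raised to it, and log2 of day 5 was subtracted from log2 of day 14. Depth in counts does not apply, and the number of arrays limits the precision. Names came from the platform annotation. Probe sets with several symbols, 691, and those not named, 1606, were left out, and 20364 of the 20393 used had a gene ID in the RefSeq table of GRCm38.p6. The sources used here do not state the build of the array design, so coordinates are those of RefSeq promoters only. The calling was checked on simulated data, with changes well past the limit planted in bright genes only. That check covers neither ratios near 2-fold nor signals at the floor. Computing used Python 3.11.15, numpy 2.4.6 and pandas 2.3.3.

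The members and the 65 gene lists were chosen with earlier results of these data known, and 2 more lists after the values were seen. Genes named are the 12 largest increases and 12 largest decreases whose measured probe sets all had 1 sign (clones and unnamed transcripts passed over), up to 4 called members of each list, and a set of marker and family genes; further genes were named after their values were seen. Alternatives were 3 other scalings, 2 other floors, an offset of 50 in place of the floor, only genes above the floor on both arrays, the mean over probe sets, and only gene-specific probe sets. Scaling to the hybridisation controls was added after seeing the data. The lists overlap, so that 1 gene can count in several.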

Additional observations from a re-analysis of the deposited data

How the results depend on the processing

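No paired analysis was possible because each day has 1 array, so there is no replicate to block on or to leave out. Among the settings tried, the number of genes called higher ranged from 231 to 514 and of those called lower from 126 to 425, against 371 and 239. The settings that moved a count by more than 1.5 times were an offset of 50 in place of the floor, with 231 higher and 126 lower genes, and scaling to the hybridisation controls, chosen after seeing the data, with 425 lower genes. The cause was not tested. The share of calls that were higher was 50.5% with the values as deposited and 37.9% with control scaling, where the median of all genes was -0.19, and stayed between 57.8% and 64.7% otherwise. None of the named genes changed sign under a setting while called. Of 199 named genes that were called, 142 kept their call under all 10 alternatives that measured them, and 57 lost it under at least 1. Of 64 lists with a median, 50 stayed within the probe set SD of 0.32 of their value under every alternative. The median of the Hox genes turned to -0.13 with only genes above the floor on both arrays, and that of the erythroid and platelet markers, with 3 measured, to 0.04 with the offset. The endothelial median was 0.48 with the floor at 2 times the pooled median, against 1.05, and that of the sarcomere genes -0.94 over genes above the floor on both arrays, against -0.57. Low signals limit the rest: 728 of the measured genes had 1 array at the floor, and their ratios are bounds.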

Other observations

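Genes of the actin cytoskeleton and of focal adhesions, a list drawn up after the values were seen, were more often called lower than higher. Of 56 measured, 14 were called lower and 1 higher (25% and 1.79%, against 3.1% and 4.81% of all measured genes), 45 lay below 0, and the median log2 ratio was -0.31. Because the list was drawn up with these values known, its counts and direction are a description and not evidence. Cotl1, a coactosin that binds actin filaments, was below the floor on day 2, at 98.9 on day 3, at 631 on day 5 and at 176 on day 14, and all 5 of its probe sets were past 2-fold. Tes, a focal adhesion protein, read 200.5 and 62.8 on days 5 and 14, Actn1, the actinin of stress fibres, 3031 and 1435, Vasp, which extends actin filaments, 503 and 238.5, and Myh9, the nonmuscle myosin, 2140.2 and 1011.5. Actn1 (-0.82) and Myh9 (-0.61), whose probe sets reached -0.10, lost their calls with the mean over probe sets, and Vasp (-0.94) with an offset in place of the floor. Lims2, an adaptor at integrins, was the single member called higher, from below the floor to 117, and its log2 ratio was 0.45 with the floor at 2 times the pooled median. Actb itself read 7607 and 7768.

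A second list chosen in the same way holds cytoskeletal and adhesion genes named for their role in neurons that myogenic cells also express. Of 16 measured, 7 were called lower (43.8%), none was called higher, and the median was -0.47. For this list, too, the counts and direction are a description and not evidence. Dcx, doublecortin, a microtubule protein of migrating cells, was below the floor on days 2 and 3 and read 1052 on day 5 and 242 on day 14, with 3 probe sets between -2.55 and -0.55 on the log2 scale. Nes, the intermediate filament nestin, read 1057 and 319.5, Cdh2, N-cadherin, 417 and 152.5, and St8sia2, which adds polysialic acid to the adhesion protein Ncam1, went from 189 to below the floor. Ncam1 was not called, with 1485.5 and 1514.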
